A study of Homo sapiens with 12 samples.

Results

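The nuclear-encoded subunits of the oxidative phosphorylation (OXPHOS) complexes were examined in a single RNA-seq profile of HCT116 cells. Members were the protein-coding genes of the count table whose names start with NDUFA, NDUFB, NDUFC, NDUFS, NDUFV, UQCR, COX4I, COX5, COX6, COX7, COX8, ATP5F1, ATP5M or ATP5P, together with *SDHA*, *SDHB*, *SDHC*, *SDHD* and *CYC1*, whereas the assembly factors named NDUFAF were dropped. This rule gave 90 genes of the 19629 protein-coding genes and of the 58037 genes listed. By complex, 38 members belong to complex I, 4 to complex II, 10 to complex III, 19 to complex IV and 19 to complex V. *NDUFA4* and *NDUFA4L2* were placed in complex IV, because the NDUFA4 protein is a subunit of that complex despite its name.

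The study treated wild type HCT116, a human colorectal carcinoma cell line, with the solvent DMSO, with 10 μM Nutlin-3a, with 20 nM NVP-2 or with both drugs for 8 h, using 3 samples for each of the 4 conditions. Nutlin-3a activates p53 by blocking MDM2, and NVP-2 inhibits CDK9, the kinase of P-TEFb. In the table used here, 0 genes had a count that differed among the 12 sample columns, so the columns amount to 1 distinct set of 22720718 counts, and its treatment is unknown. The values below therefore describe 1 HCT116 profile, without replicates, without a comparison of treatments and without p-values.

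OXPHOS takes place in the inner mitochondrial membrane. Complexes I and II pass electrons from NADH and succinate to ubiquinone, complex III passes them on to cytochrome c, and complex IV hands them to oxygen. Complexes I, III and IV pump protons, and the ATP synthase, here called complex V, uses the proton gradient to make ATP. Most subunits are encoded in the nucleus and imported, while a few core subunits of every complex except complex II are encoded in mitochondrial DNA (mtDNA).

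Levels are given as counts, which are reads per gene, and as RPKM, the counts scaled to the gene length in kilobases and to the total of the profile, which allows genes of different length to be compared. The gene length is the sum of the merged exons of a gene, and a second RPKM uses the length of its canonical transcript instead. Both lengths come from a later annotation than the counts, and the part of this difference in the RPKM values was not tested. The 95% Wilson confidence intervals cover counting error only, since no replicate is available to show biological variation. Of the colorectal epithelial markers, 5 of 9 had an RPKM of at least 1, with *KRT8* at 514, *KRT18* at 491, *KRT19* at 413, *EPCAM* at 182 and *CDH1* at 10.7, while the intestinal genes *CDX2* at 0.813, *KRT20* at 0.851 and *VIL1* at 0.0255 lay under 1 and *CDX1* had 0 counts. Of 10 markers of other cell types only *ACTA1* reached 1, at 1.09, *COL1A1* had 0.972 with 199 counts, while *PTPRC*, *MYH7*, *PRM1* and *TNP1* had 0 counts. With canonical lengths 3 of the 10 reached 1, namely *ACTA1* (1.74), *COL1A1* (1.48) and *TNNT2* (1.10).

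The members were abundant in this profile. Together they held 273592 counts, or 1.20% of the total, and 78 of the 90 had an RPKM of at least 1, compared with 44.6% of all protein-coding genes. At an RPKM of at least 10 the number was 69, against a background of 16.2% of protein-coding genes. With canonical lengths 80 members reached an RPKM of 1, beside a background of 49.1%, and 80 members had at least 10 counts, beside 62.8%. The median RPKM of the members was 34.0, with quartiles of 11.1 and 77.2, and the median of all protein-coding genes was 0.589. Among the 8754 protein-coding genes with an RPKM of at least 1 the median was 6.03. Members are short genes, with a median canonical transcript of 757 nt and a median coding sequence of 394.5 nt, compared with 2905 nt and 1281 nt over all protein-coding genes.

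**Figure D1:**
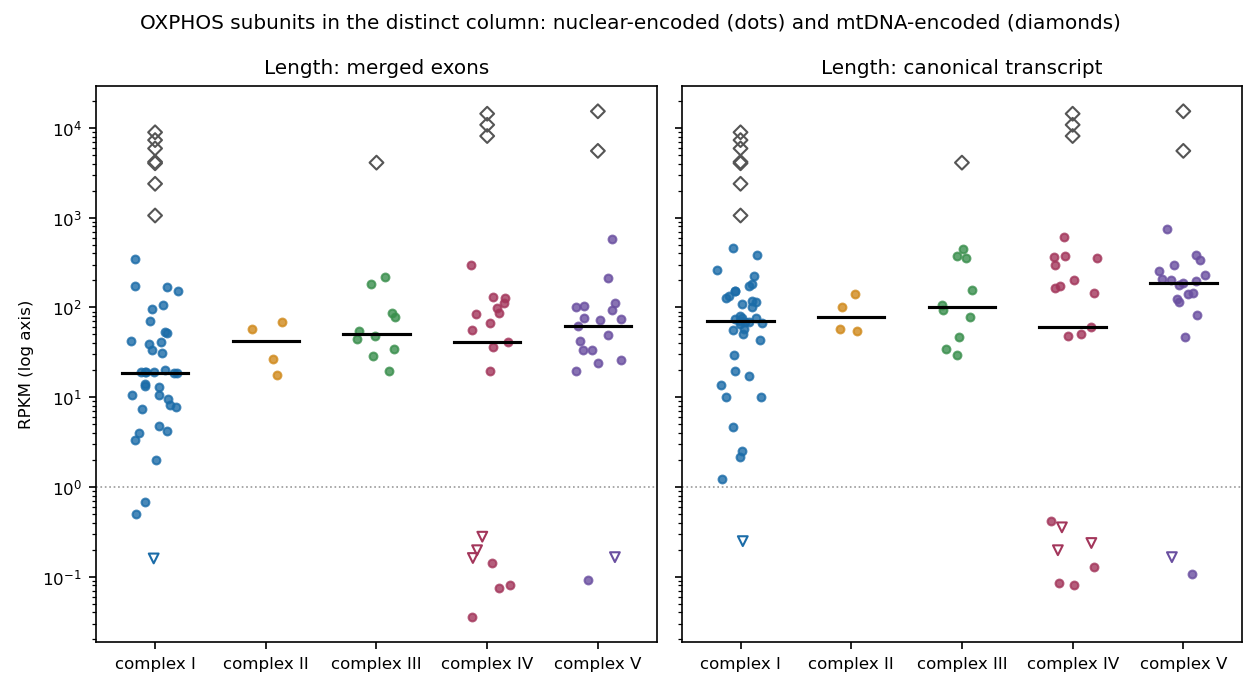
RPKM on log10 axes by complex, with merged exon lengths on the left and canonical transcript lengths on the right. Dots are nuclear-encoded members, open triangles members with 0 counts drawn at 3 counts, diamonds mtDNA-encoded subunits, black lines the medians of the members and the dotted line an RPKM of 1. Member medians run from 18.7 in complex I to 62.5 in complex V on the left, and the members under the dotted line on the right lie in complexes I, IV and V.

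The complexes were next compared by the median level of their members. The median RPKM was 62.5 in complex V, 51.2 in complex III, 42.3 in complex II, 41.1 in complex IV and 18.7 in complex I. With canonical lengths the medians were 186, 100.1, 78.6, 61.1 and 69.7 in the same order, so complex V stayed highest and complex III next, whereas complexes I and IV exchanged places at the bottom. The place of complex IV also turned with the members counted: without those under 10 counts its median on merged exons was 85.2, above the 72.3 of complex V. With canonical lengths and the same members complex V stayed highest, at 196 against 187. The gene length matters here because the merged exons of 17 members are at least 5 times as long as their canonical transcript. Complex IV combines 12 genes with an RPKM of at least 19.4 and 7 genes with fewer than 10 counts, all 7 of which are paralogues of an abundant member. Genes are not replicates, so these medians were not tested against each other. As shares of all counts, complex V held 0.472%, complex I 0.290%, complex IV 0.207%, complex III 0.184% and complex II 0.0500%.

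In the order of all 90 members by RPKM on merged exons, the intervals of 71 of the 89 neighbouring pairs overlapped. At the top, *ATP5F1B* (585), *NDUFS5* (349) and *COX8A* (300, 95% CI 290 to 310) were separated from each other and from the next gene by more than counting error. *CYC1* and *ATP5MK* followed with overlapping intervals. Below them, the interval of *NDUFA1* overlapped both that of *UQCRH* above it and that of *NDUFB10* below it, whereas *UQCRH* and *NDUFB10* did not overlap each other. With canonical lengths *ATP5F1B* stayed first, but *NDUFS5* (387) fell to place 5 and *COX8A* (300) to place 13. Across the 80 members with at least 10 counts, the Spearman correlation of the RPKM on merged exons with that on canonical transcripts was 0.765, and 5 genes were among the highest 10 by both. Since each RPKM divides the same count by a length, these values share the counts and the library. The correlation of merged exon length with RPKM was -0.652 over the same 80 genes, and shares the length.

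Complex I takes electrons from NADH, and its core nuclear-encoded subunits carry the flavin and the iron-sulfur clusters. With canonical lengths, the 7 core genes had a median RPKM of 76.5, compared with 69.5 for the other 31 complex I genes, but with merged exons the order turned and the core median lay below the 19.0 of the others. *NDUFV1*, which binds NADH and the flavin, had 4768 counts and an RPKM of 41.5 (95% CI 40.3 to 42.7). *NDUFV2*, its partner with an iron-sulfur cluster, had 42 counts and an RPKM of 0.682 (0.504 to 0.922). The largest iron-sulfur subunit, *NDUFS1*, had 2654 counts and an RPKM of 9.60. *NDUFS3* had an RPKM of 19.9, while *NDUFS7* and *NDUFS8*, the iron-sulfur subunits nearest to ubiquinone, had 7.78 and 18.9. The core genes named here other than *NDUFV2* thus had between 1318 and 4768 counts.

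The other complex I genes encode accessory subunits, which surround the core and are needed for its assembly or stability. On merged exons *NDUFS5* was the highest complex I gene, with 4350 counts and an RPKM of 349 (339 to 360). It was followed by *NDUFA1*, an X-linked gene, with 1663 counts and an RPKM of 174. *NDUFB9* had the most counts in complex I, 7187, and its place depends on the length used. Its RPKM was 19.1 on merged exons and 458 on the canonical transcript, which is 24 times shorter. With canonical lengths *NDUFB9* was the highest complex I gene, above *NDUFS5* (387). *NDUFB10* (259), *NDUFAB1* (223) and *NDUFS6* (182) then also lay above *NDUFA1* (174). At the other end, *NDUFA7* had 16 counts and an RPKM of 0.506 (0.311 to 0.822), *NDUFA9* 2.01 with 474 counts, and *NDUFA13* 3.30 with 203 counts. The read-through gene *NDUFC2-KCTD14*, which joins *NDUFC2* to its neighbour, had 0 counts, while *NDUFC2* itself had 672.

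Complex II, succinate dehydrogenase, is also an enzyme of the citric acid cycle, and all of its subunits are nuclear-encoded. The flavoprotein gene *SDHA* had 3487 counts, the iron-sulfur gene *SDHB* 3231, and the membrane anchors *SDHC* and *SDHD* 2980 and 1671. The counts of these 4 genes lay within a narrow range compared with the other complexes. In RPKM the order was *SDHC* (69.0), *SDHB* (58.2), *SDHD* (26.4) and *SDHA* (17.6), with no overlap of the intervals. With canonical lengths it became *SDHB* (140), *SDHC* (100.3), *SDHA* (57.0) and *SDHD* (54.9), and the last 2 were within counting error of each other.

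Complex III passes electrons from ubiquinol through the Rieske iron-sulfur protein and cytochrome c1 to cytochrome c. *CYC1*, which encodes cytochrome c1, was the highest gene of the complex with 9656 counts and an RPKM of 216 (212 to 221). With canonical lengths *UQCRH* (451) and *UQCRHL* (375) lay above its 357. The canonical transcript of *UQCRHL* has only 276 nt, of which 273 are coding, while its merged exons have 2180 nt. The place of *UQCRHL* therefore depends on the length used. *UQCRFS1*, the Rieske protein, had 2407 counts and an RPKM of 34.3, with merged exons and canonical transcript of the same length. The core proteins *UQCRC1* and *UQCRC2* had RPKM values of 77.2 and 44.6. The small subunits ranged from *UQCRB*, the lowest gene of the complex at 19.6 with 5617 counts, over *UQCR11* (28.4), *UQCRQ* (54.9) and *UQCR10* (87.6) to *UQCRH* (181).

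*UQCRH*, the hinge protein that holds cytochrome c1, has a near-identical protein-coding copy, *UQCRHL*, and both were counted: *UQCRH* had 5507 counts and *UQCRHL* 2349. The RPKM of *UQCRHL* was 47.4, or 26.2% of that of *UQCRH* (exact binomial 95% CI 24.99 to 27.5), and with canonical lengths it was 83.0%. The coding sequences of both genes, read from hg38 with GENCODE v44 and without the stop codon, are shown because the reads of the pair can be told apart only where they differ. Each is 273 bases long, given 5′ to 3′ on the strand of the gene, and capitals mark the 4 bases that differ, which leaves an identity of 98.5%. *UQCRH* lies at chr1:46303698-46316776 on the plus strand and *UQCRHL* at chr1:15807169-15809348 on the minus strand.
UQCRH: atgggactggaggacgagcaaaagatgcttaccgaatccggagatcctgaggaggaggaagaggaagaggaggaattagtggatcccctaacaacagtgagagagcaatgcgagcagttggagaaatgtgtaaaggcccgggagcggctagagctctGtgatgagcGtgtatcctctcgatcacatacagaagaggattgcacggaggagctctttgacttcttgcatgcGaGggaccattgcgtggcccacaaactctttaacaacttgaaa
UQCRHL: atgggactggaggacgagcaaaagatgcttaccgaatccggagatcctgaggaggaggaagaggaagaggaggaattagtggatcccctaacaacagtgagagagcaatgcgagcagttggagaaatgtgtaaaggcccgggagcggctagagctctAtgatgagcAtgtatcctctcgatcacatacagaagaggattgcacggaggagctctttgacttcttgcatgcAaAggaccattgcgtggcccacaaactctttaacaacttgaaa

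Since the reads were 75 bases long, every stretch of 75 bases in the canonical transcript of *UQCRHL* was searched in that of *UQCRH*. Of the 202 stretches, 83 (41.1%) occur unchanged in *UQCRH*, and in the other direction 22.5% of the *UQCRH* stretches occur at the *UQCRHL* locus. The split of counts between the pair is therefore uncertain, and how the reads shared by both were assigned was not tested.

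In complex IV, cytochrome c oxidase, the catalytic core is encoded in mtDNA and the nuclear-encoded subunits surround it. *COX8A* was highest, with 3363 counts and an RPKM of 300, followed by *COX6B1*, which sits on the side facing cytochrome c, with 4094 counts and 132. *COX4I1*, a large regulatory subunit, had the most counts of the complex, 10669, at an RPKM of 97.5, and it was the highest member of the complex with canonical lengths at 615. The remaining expressed genes were *COX5A* (127), *COX7C* (113), *COX7A2* (86.7), *COX5B* (83.7), *COX6A1* (66.2), *COX6C* (55.6), *COX7B* (41.1), *NDUFA4* (35.9) and *COX7A2L* (19.4).

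Complex V consists of the catalytic F1 head and a membrane part that includes the rotating c ring and a peripheral stalk. *ATP5F1B*, the catalytic beta subunit, was the highest member of all complexes by counts and by both lengths, with 29723 counts and an RPKM of 585 (578 to 591), or 744 on the canonical transcript. It lies at chr12:56638175-56645984 on the minus strand of hg38. *ATP5F1A*, the alpha subunit that alternates with beta in the head, had 18552 counts, the second most. Its RPKM was 74.9 on merged exons and 142 on the canonical transcript. The subunits of the central stalk had RPKM values of 93.3 for *ATP5F1C*, 102 for *ATP5F1D* and 33.4 for *ATP5F1E*. The peripheral stalk genes ranged from 19.4 for *ATP5PO* to 103 for *ATP5PB*, and the other membrane genes from 23.8 for *ATP5MG* to 212 for *ATP5MK*.

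The c ring is built from a single mature protein that is encoded by 3 genes with different import sequences. All 3 were expressed: *ATP5MC1* had 3715 counts, *ATP5MC2* 2941 and *ATP5MC3* 6784. By RPKM on merged exons *ATP5MC3* had the largest share of the group, with 44.6%, ahead of *ATP5MC1* with 36.2% and *ATP5MC2* with 19.2%. With canonical lengths the order turned, to 44.1% for *ATP5MC1*, 35.7% for *ATP5MC2* and 20.1% for *ATP5MC3*, so which gene gives most transcripts cannot be read from these counts. Over the last 225 coding bases, *ATP5MC1* and *ATP5MC2* are identical at 200, and *ATP5MC3* is identical to each of them at 183. In the canonical transcripts, 0 stretches of 75 bases, the read length, were shared by any pair.

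Several subunits have more than 1 related gene, in some cases a general form and a form known from particular tissues. In all, 10 groups of related genes, with 22 genes, were compared. In 7 groups, 1 gene held over 99% of the summed RPKM. The muscle form *COX6A2* had 0 counts beside 2014 of *COX6A1*, so that at 3 counts, the floor used here for a count of 0, its RPKM was 237-fold lower. The exact binomial 95% interval is wider than this floor and reaches 0.519% of the RPKM of *COX6A1*. This fold and those of the other genes with 0 counts use the length, merged or canonical, that gives the smaller fold. Percentages are on merged exons unless stated otherwise. *COX7A1*, the heart and muscle form, had 1 count beside 3785 of *COX7A2*, an RPKM of 0.0867% of it (exact binomial 95% CI 0.00219 to 0.483). *COX4I2*, a form known from lung that is regulated by oxygen, had 0 counts beside 10669 of *COX4I1*. At 3 counts it was 494-fold lower, with an upper 95% limit of 0.249% of the RPKM of *COX4I1*.

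The forms known from testis also had few counts. *COX6B2* had 3 counts beside 4094 of *COX6B1*, an RPKM of 0.0270% of it (0.00556 to 0.0789), and *COX8C* had 1 count beside 3363 of *COX8A*, or 0.0271% (0.000686 to 0.151). *COX7B2* had 0 counts beside 2826 of *COX7B* and was at least 214-fold lower. The hypoxia-induced *NDUFA4L2* had 9 counts beside 2826 of *NDUFA4*, or 0.393% (0.180 to 0.748) of its RPKM. With canonical lengths it was 0.687% (0.314 to 1.31). *ATP5MGL* had 0 counts beside 4527 of *ATP5MG* and was at least 144-fold lower.

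The remaining groups held more than 1 expressed gene. They were the *ATP5MC* genes, *UQCRH* with *UQCRHL*, and *COX7A2* with *COX7A2L*, a relative of the COX7A subunits that joins complexes III and IV in supercomplexes. *COX7A2L* had 2469 counts and an RPKM of 19.4, which is 22.4% of that of *COX7A2* (21.3 to 23.5), or 13.2% with canonical lengths.

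**Figure D2:**
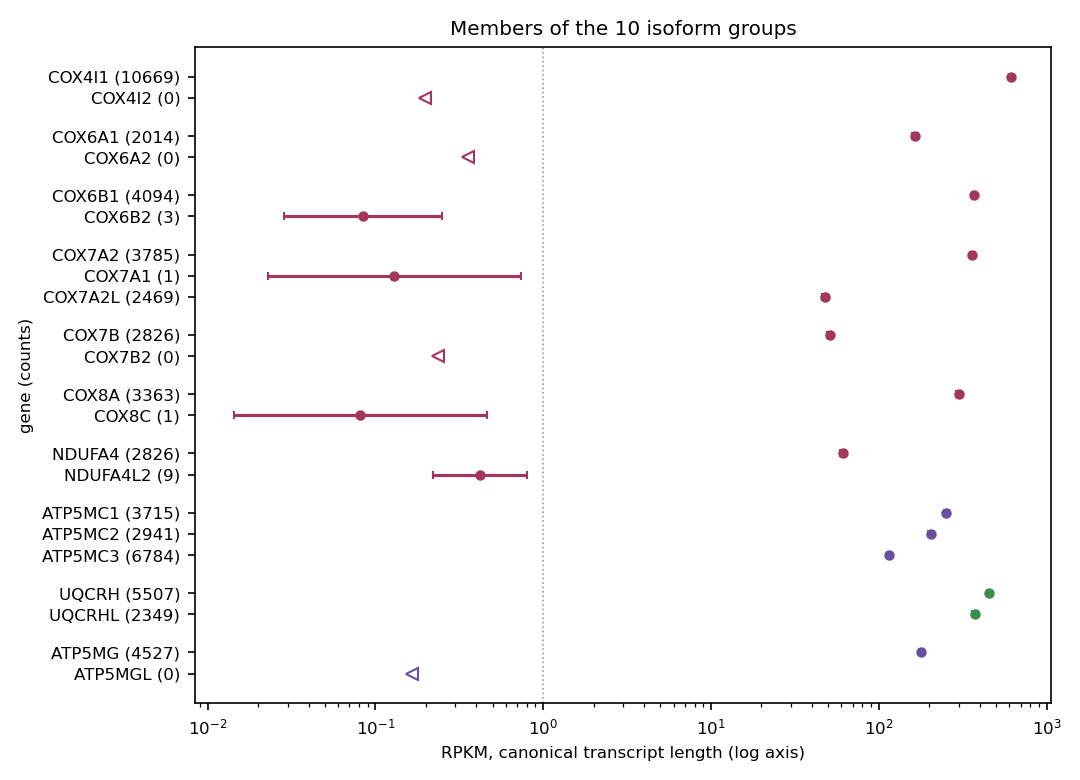
RPKM with canonical lengths on a log10 axis for the 22 genes of the 10 isoform groups, with the counts in brackets after each name. Points carry 95% Wilson intervals, open triangles are genes with 0 counts drawn at 3 counts, colours give the complex and the dotted line is an RPKM of 1. The 8 low forms lie left of the line, and the *ATP5MC* genes, *UQCRH* with *UQCRHL*, and *COX7A2* with *COX7A2L* all lie right of it.

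In 5 of these pairs both genes have a promoter sequence in RefSeq (GRCh38.p14), and the 100 bases before the start are printed to set the abundant form beside the form with 0 to 9 counts. Each line runs 5′ to 3′ on the strand of the gene, and capitals mark the ETS core, the letters CCGGAAG or their reverse complement CTTCCGG, which are bound by the ETS family to which GABP belongs. The stretches are chr12:120438013-120438112 on the plus strand for *COX6A1*, chr16:31428361-31428460 on the minus strand for *COX6A2*, chr19:35648223-35648322 on the plus strand for *COX6B1*, chr19:55354720-55354819 on the minus strand for *COX6B2*, chrX:77899368-77899467 on the plus strand for *COX7B*, chr4:46909246-46909345 on the minus strand for *COX7B2*, chr11:63974520-63974619 on the plus strand for *COX8A*, chr14:93347082-93347181 on the plus strand for *COX8C*, chr7:10940154-10940253 on the minus strand for *NDUFA4* and chr12:57240745-57240844 on the minus strand for *NDUFA4L2*.
COX6A1: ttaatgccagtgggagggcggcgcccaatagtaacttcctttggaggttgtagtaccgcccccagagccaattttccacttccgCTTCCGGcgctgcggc
COX6A2: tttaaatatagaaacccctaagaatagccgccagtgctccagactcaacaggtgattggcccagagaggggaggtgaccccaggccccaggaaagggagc
COX6B1: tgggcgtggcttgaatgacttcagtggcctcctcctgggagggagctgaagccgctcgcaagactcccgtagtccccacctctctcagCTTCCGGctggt
COX6B2: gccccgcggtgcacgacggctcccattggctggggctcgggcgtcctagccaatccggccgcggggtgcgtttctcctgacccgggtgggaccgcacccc
COX7B: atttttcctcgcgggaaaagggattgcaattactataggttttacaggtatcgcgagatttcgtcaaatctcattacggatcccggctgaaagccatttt
COX7B2: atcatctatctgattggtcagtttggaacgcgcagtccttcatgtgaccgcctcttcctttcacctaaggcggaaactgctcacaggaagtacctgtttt
COX8A: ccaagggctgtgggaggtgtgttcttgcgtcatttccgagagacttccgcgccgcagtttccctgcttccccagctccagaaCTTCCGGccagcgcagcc
COX8C: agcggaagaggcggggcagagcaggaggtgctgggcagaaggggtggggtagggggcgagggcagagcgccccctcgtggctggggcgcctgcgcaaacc
NDUFA4: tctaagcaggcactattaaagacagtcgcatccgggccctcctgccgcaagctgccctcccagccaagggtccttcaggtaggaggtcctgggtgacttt
NDUFA4L2: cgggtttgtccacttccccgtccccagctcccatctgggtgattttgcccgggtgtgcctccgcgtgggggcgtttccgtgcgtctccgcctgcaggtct

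The ETS core occurs in 3 of the 5 abundant forms, 16 bases before the start in *COX6A1*, 12 in *COX6B1* and 18 in *COX8A*, counted from the first base of the motif to the start, and in 0 of the 5 others. In this 100-base window it was in 17.4% of other protein-coding genes with an RPKM of at least 1. The share was 11.1% of all protein-coding genes with a promoter. Over the full promoter of 300 bases (250 before and 50 after the start), CpG pairs numbered 22 in *COX6A1* and 5 in *COX6A2*, 14 in *COX7B* and 8 in *COX7B2*, and 18 in *COX8A* and 10 in *COX8C*. The other pairs ran the other way, with 16 in *COX6B1* and 31 in *COX6B2*, and with 10 in *NDUFA4* and 16 in *NDUFA4L2*. Other motifs were distributed differently over the full promoters. The NRF1 motif GCGCANGCG was in *COX6A1* and in the low form *COX8C*. CCAAT was in both genes of the COX6A, COX6B and COX7B pairs and in *COX8A*. The SP1 motif GGGGCGG was in *COX6A1* alone. A match to the letters of a motif is a description of the sequence and not evidence of binding.

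Motifs were then counted on both strands in the promoters of 72 members (80%), in 15410 protein-coding genes and in the 7180 genes outside the members that had an RPKM of at least 1. The NRF1 motif GCGCANGCG, bound by a factor known from many OXPHOS promoters, was in 31.9% of the member promoters, in 17.4% of the expressed others and in 11.6% of all. The YY1 motif AAGATGGC was in 16.7%, 6.73% and 4.14% in the same order, and the ETS core in 29.2%, 22.99% and 14.8%. The SP1 motif GGGGCGG ran the other way, with 30.6% of members, 57.2% of expressed others and 44.3% of all. CCAAT differed least, with 31.9%, 37.5% and 36.6%. The Wilson intervals of the member shares included the share of the expressed others for the ETS core (19.9 to 40.5%) and CCAAT (22.3 to 43.4%). They did not include it for NRF1 (22.3 to 43.4%), YY1 (9.80 to 26.9%) and SP1 (21.1 to 42.0%). None of the 5 motifs contains another. These are shares of fixed sets of promoters and were not tested. The median number of CpG pairs per promoter, which bears on motifs that contain CpG, was 23 in the members, 28 in the expressed others and 23 in all, and the part of base composition in the shares was not tested.

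**Figure D3:**
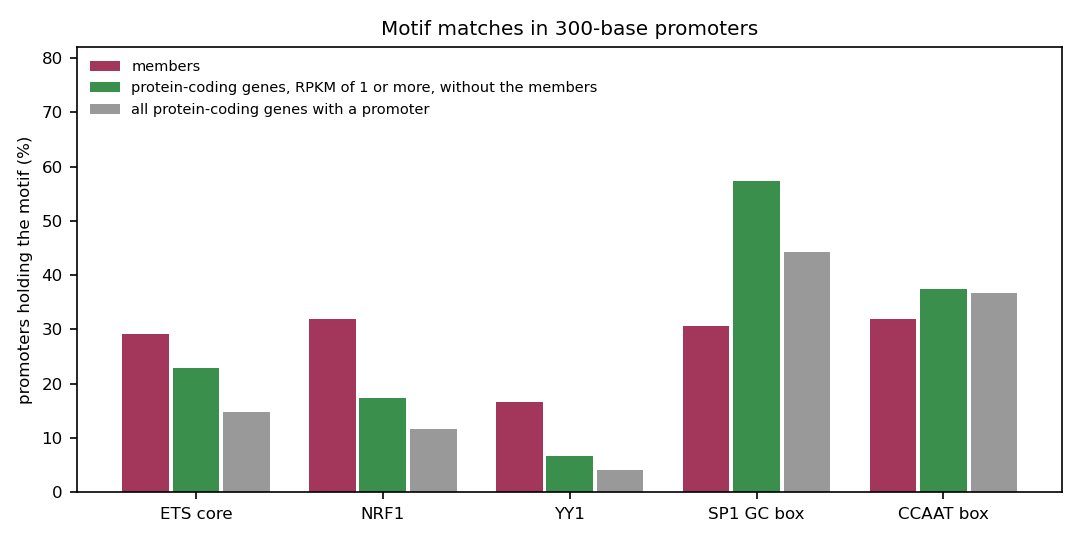
Percent of promoters (250 bases before to 50 after the start) with each of 5 motifs, with bars for the 72 members, the expressed other protein-coding genes and all protein-coding genes with a promoter. The member bar is the highest for NRF1, YY1 and the ETS core and the lowest for the SP1 box and CCAAT. For the ETS core and CCAAT, the Wilson interval of the member share includes the share of the expressed others.

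Among the complexes, the NRF1 motif was in 10 of 33 promoters of complex I, 2 of 3 of complex II, 4 of 7 of complex III, 2 of 16 of complex IV and 5 of 13 of complex V. The ETS core was in 5, 2, 3, 5 and 6 of the same promoters. At least 1 of NRF1, YY1 and the ETS core was in 45 of the 72 member promoters (62.5%), beside 40.5% of the expressed others and 26.8% of all. Both NRF1 and the ETS core were in 4 (5.56%), beside 4.15% and 2.35%. The promoters of *ATP5MF*, *UQCRB*, *ATP5F1B*, *CYC1*, *NDUFB9*, *NDUFS5*, *ATP5F1D*, *UQCRHL*, *COX4I2*, *NDUFC2*, *COX6C*, *ATP5MC3*, *COX7A1*, *ATP5MF-PTCD1*, *SDHC*, *NDUFB5* and *ATP5MGL* were among those not analysed here.

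Every member with an RPKM under 1 was accounted for. Of these 12 genes, 8 are the low isoforms described above and 2 are read-through genes, *NDUFC2-KCTD14* with 0 counts and *ATP5MF-PTCD1* with 6. The other 2 are *NDUFV2* and *NDUFA7*, which encode general complex I subunits. *NDUFV2* lies at chr18:9102630-9134345 on the plus strand and *NDUFA7* at chr19:8308768-8321375 on the minus strand of hg38.

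Both genes share most of their exons with another gene annotated on the same strand. For *NDUFV2*, 90.0% of the canonical transcript is covered by exons of a lncRNA (ENSG00000265257) that had 0 counts, and for *NDUFA7* 77.9% is covered by another protein-coding gene (ENSG00000167774) with 1 count. *NDUFA13*, a membrane subunit with 203 counts, has 83.9% covered by ENSG00000258674, which had 3 counts. In *NDUFB8*, *NDUFA11* and *ATP5PO*, 72.0%, 68.2% and 63.8% are covered by genes with 0 counts.

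These 6 members, leaving out the read-through genes, had a median canonical RPKM of 36.7 (1.21 to 81.5). The 72 members with no base covered had a median of 116, or 135 for the 65 of them with at least 10 counts. Members with a smaller part covered belong to neither group. When only the uncovered bases are used as the length, with all counts kept, the median of the 6 was 153 and ranged from 5.50 in *NDUFA7* to 225 in *ATP5PO*, and *NDUFV2* came to 21.5. A shorter length raises these values by construction, so their rise is not a result. How reads lying on several genes were counted is not given in the sources used here, and the part of the overlap in the low counts was not tested. Since overlapping genes can share reads, the levels of these 6 genes are uncertain. *NDUFA9* (canonical RPKM 2.50, 11.7% covered) and *NDUFV3* (4.61, with 0% covered) were also low per length, with little or no cover. Their canonical transcripts are long, at 8356 and 5725 nt beside a median of 757 nt over the members. They had 474 and 600 counts, and the part of the length in their low RPKM was not tested.

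**Figure D4:**
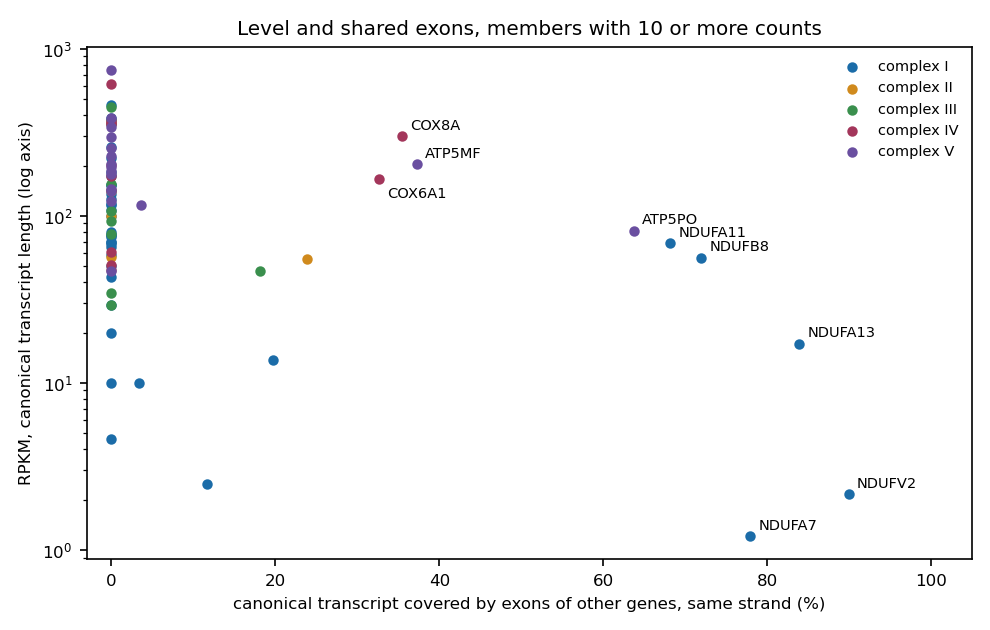
Canonical RPKM on a log10 axis against the percent of each member's canonical transcript covered by same-strand exons of other genes, with 1 point per member of at least 10 counts. *NDUFV2* (90.0% covered, 2.16) and *NDUFA7* (77.9%, 1.21) lie at the lower right.

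Many members have pseudogenes, most of them processed pseudogenes, which are copies of an mRNA inserted elsewhere in the genome. The table lists 189 pseudogenes named after 50 of the members, and they held 3094 counts together, or 1.13% of the members' counts. For 10 members they held over 1% of the counts of the parent gene. The highest was *COX6A1P2* on chromosome 6 (37044860 to 37045189), with 1187 counts and an RPKM of 158, beside 2014 counts and 66.2 of *COX6A1*. The pseudogene is 330 nt long and the merged exons of *COX6A1* 1339 nt. On its canonical transcript of 537 nt *COX6A1* had an RPKM of 165, so which of them is higher depends on the length. Of the 75-base stretches of the *COX6A1* transcript, 48.0% occur unchanged at that place. *NDUFV2P1* on chromosome 19 had 429 counts, beside 42 of *NDUFV2* itself, and holds 21.6% of the *NDUFV2* stretches.

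Others were lower: *COX7CP1* had 341 counts, *UQCRFS1P1* 258, *NDUFB4P12* 150, *SDHAP4* 133 and *SDHAP1* 123. Copies without a parent's name also carried counts, with 318 at a copy of *SDHC* on chromosome 17 and 284 at a copy of *ATP5PB*. In all, 32 members had some stretch that occurs elsewhere in the genome, and in 6 members these were over 10% of all stretches. They are *COX6A1*, *NDUFV2*, *SDHC* (46.0%), *SDHD* (31.2%), *UQCRFS1* (16.8%) and *UQCRH*. Reads from such stretches cannot be assigned to 1 place by their sequence, so the counts of these genes and of their copies are uncertain.

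**Figure D5:**
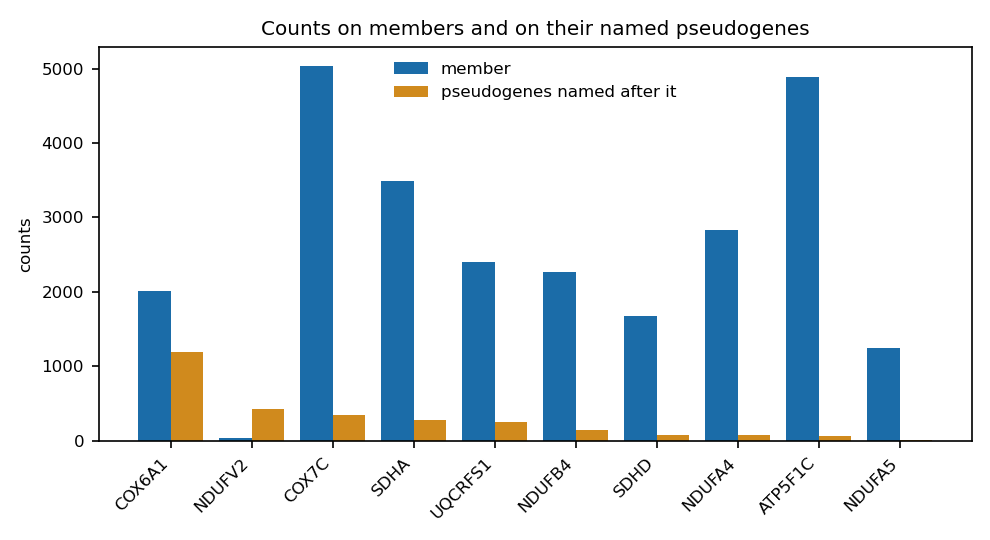
Counts on a linear axis of the 10 members whose named pseudogenes hold over 1% of their counts, with 1 bar for the member and 1 for the sum of its pseudogenes. The pseudogene bar exceeds that of the member for *NDUFV2*, with 429 against 42, and is the tallest for *COX6A1*, with 1187.

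The 13 subunits encoded in mtDNA were far above the members. They held 1799690 counts, or 7.92% of the total, and their RPKM values ranged from 1056 for *MT-ND6* to 15290 for *MT-ATP6*, so the lowest exceeded *ATP5F1B* at 585. Compared within a complex, the median of the mtDNA-encoded subunits was 59.9 times that of the nuclear-encoded members in complex I (4178 against 69.7 with canonical lengths), 40.9 times in complex III, 177 times in complex IV and 56.0 times in complex V. The complex IV ratio was 57.7 without the members under 10 counts, and with merged exons the ratios for complexes I, III, IV and V were 223, 80.1, 263 and 167. The 77 genes of cytosolic ribosomal proteins, another set of short and abundant mRNAs, had a median RPKM of 254 and held 7.24% of the counts.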

How the data were processed

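Poly(A)-selected, strand-specific libraries were sequenced as single 75-base reads. The authors mapped them to hg38 with ContextMap, using BWA, and deposited raw counts per gene from featureCounts with Gencode version 25, without normalization. Columns were assigned to samples by name. As 0 genes differed among the 12 columns, they were used as 1 sample and the planned edgeR tests between conditions were not run.

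Identifiers without version suffix were matched to GENCODE v44 (56948 of 58037, with 99.8% of the counts). RPKM was computed from the deposited counts and the column total with merged exon or canonical transcript lengths of GENCODE v44. The reads had been counted with an earlier version, so these lengths may include bases on which no reads were counted. The part of this difference in the levels, ranks and medians was not tested. Intervals are Wilson or, for ratios of counts, exact Clopper-Pearson intervals, and the floor is 3 counts (CPM 0.132). All 75-base stretches of the canonical transcripts were searched on both strands of hg38. Scripts used Python 3.11.15, pandas 2.3.3, numba 0.67.0 and scipy 1.17.1, and the searches and RPKM were tested on simulated data. The alternatives were other lengths, totals, count minimums, complex assignments and promoter windows.

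Members and lists were chosen with earlier results of these data known. Named were every isoform, the 2 highest and 2 lowest members of each complex, the core subunits, members under 10 counts and lists of pathway genes. Others, such as pseudogenes, covering genes and further members, were named after their values were seen. The values of 1 member are not reported here.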

Additional observations from a re-analysis of the deposited data

How the results depend on the processing

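No paired analysis was possible because the 12 columns hold the same counts, so no test between conditions, with or without a replicate left out, was run.

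Medians moved with the length, the total or the members used. The member median of 34.0 was 96.8 with canonical lengths, 37.9 with mitochondrial genes left out of the total, 41.9 with at least 10 counts and likewise without both read-through genes and genes under 10 counts, and 112 with only canonical bases free of other genes, an alternative chosen after seeing the data. For complexes I to V, the medians of 18.7, 42.3, 51.2, 41.1 and 62.5 became 69.7, 78.6, 100.1, 61.1 and 186 with canonical lengths, 20.9, 47.2, 57.1, 45.9 and 69.8 without mitochondrial genes in the total, and 76.5, 86.2, 100.1, 61.1 and 200.2 with free bases. With at least 10 counts complex IV reached 85.2 and complex V 72.3 on merged exons, so that complex IV came first in the order. With canonical lengths and at least 10 counts complex V stayed first, at 196 beside 187 for complex IV. With *NDUFA4* and *NDUFA4L2* in complex I, also chosen after seeing the data, complex IV reached 55.6. CCAAT was in 19.4% of promoters in place of 31.9% when 100 bases before the start were used, a shorter window.

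The 78 members with an RPKM of at least 1 became 69 at 10, 79 by CPM of at least 1 and 80 with canonical lengths. The 7 groups with 1 gene over 99% stayed 7 with canonical lengths, with counts and with pseudogene counts added. Of 18 isoform shares, 7 moved by more than their interval with canonical lengths and 7 with counts. At this depth, differences among genes of a few counts cannot be seen.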

Other observations

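Genes that build or regulate the complexes were described beside the subunits. Of 52 listed assembly factors 51 were matched in the table, and 50 of them had an RPKM of at least 1. Their median was 5.59, or 10.9 with canonical lengths, compared with 34.0 and 96.8 for the subunits. *NDUFAF8*, an assembly factor of complex I, was the highest at 52.8, followed by *UQCC4* for complex III at 39.9, *SURF1* for complex IV at 34.2 and *NDUFAF3* for complex I at 33.7. *PET117*, a complex IV factor, had 4 counts and an RPKM of 0.153. *CYCS*, the cytochrome c that links complexes III and IV, had 12232 counts and an RPKM of 92.97, and *ATP5IF1*, the inhibitor of the ATP synthase, had 2016 counts and 39.9.

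Of 11 listed regulators of mitochondrial genes, 9 had an RPKM of at least 1. The coactivators differed widely, with *PPRC1* at 20.7, *PPARGC1B* at 0.850 and *PPARGC1A* at 0 counts, for which the floor used here is 3 counts. *YY1* had an RPKM of 20.5, the nuclear receptor *ESRRA* 19.6, and the mtDNA transcription factors *TFAM* and *TFB2M* 12.3 and 12.7. *GABPA* and *GABPB1*, the subunits of the ETS factor GABP, had 5.36 and 2.29, *NRF1* 2.49 and *TFB1M* 3.58. By position, 12 of the 90 members (13.3%) lie on chromosome 19, which holds 7.43% of the matched protein-coding genes, and the members are spread over 22 chromosomes.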
